A study of Mus musculus with 2208 samples.

Results

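Cells of 3 CKp25 mice at 1 week of induction were divided by cell cycle genes, and cells that held mitotic genes were compared with cells that held S-phase genes alone. A cell was put in the mitotic class when at least 2 of Ccnb1, Ccnb2, Cdc20, Plk1, Aurka and Cenpe were at an FPKM of 1 or more. FPKM is a fragment count scaled to the length of the transcript and to the mapped fragments of the cell. The other class held fewer than 2 of these and at least 2 of Mcm3, Mcm5, Mcm6, Tyms, Rrm2 and Tk1 at the same level. Cells with fewer than 1000 genes at that level and the well numbered first for each mouse were left out. Of 264 cells kept from 288 wells, 42 were in the mitotic class (13, 18 and 11 in mice 1, 2 and 3), 78 in the S-phase-gene class (25, 24 and 29) and 144 in neither (47, 45 and 52). The 120 cells of both classes came from a series of 2208 cells.

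The series followed hippocampal microglia of CK-p25 mice by single-cell RNA sequencing. These mice carry a p25 transgene, an activator of the kinase Cdk5, that is switched on in forebrain neurons, and CK mice are the controls. The mice examined here carried the CKp25 label and were aged 3 months and 1 week. Both classes came from the same 3 animals, so the comparison is within mice. CKp25 mice at 2 weeks and the other 6 groups (CK at 0, 1, 2 and 6 weeks and CKp25 at 0 and 6 weeks) served only to show where the classes occurred. The 2-week mice also showed what the same rule gave in other animals. Cells were sorted on CD11b and CD45, surface proteins of microglia and other myeloid cells, into wells, and libraries were made with a Smart-seq2 protocol.

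Microglia are the resident macrophages of the brain and divide within the tissue when they respond to injury. In a dividing cell the Mcm helicase is loaded on DNA before S phase, and Tyms, Rrm2 and Tk1 supply the nucleotides that replication uses. Cyclin B with Cdk1 and the kinases Plk1 and Aurka then drive entry into mitosis, Cenpe is a kinetochore motor, and Cdc20 turns on the anaphase-promoting complex that ends mitosis. Many promoters of genes expressed in G2 and mitosis hold CCAAT boxes and the element TTTGAA, known as the cell cycle genes homology region, while E2F sites are typical of S-phase genes.

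To show such promoters beside the results, the first 3 genes by adjusted p in each direction that had an entry in the RefSeq promoter table are printed, as the 250 bases before the start on GRCm38.p6. Ube2c (a ubiquitin-conjugating enzyme of the anaphase-promoting complex), Top2a (DNA topoisomerase II alpha) and Tubb4b (a beta tubulin) were higher in the mitotic class. Capitals mark CCAAT and TTTGAA on either strand, and also TTCCCGC, a common form of the E2F site, with its variant TTGGCGC. Matches that overlap were counted separately.
Ube2c (chr2:164769679-164769928, plus strand): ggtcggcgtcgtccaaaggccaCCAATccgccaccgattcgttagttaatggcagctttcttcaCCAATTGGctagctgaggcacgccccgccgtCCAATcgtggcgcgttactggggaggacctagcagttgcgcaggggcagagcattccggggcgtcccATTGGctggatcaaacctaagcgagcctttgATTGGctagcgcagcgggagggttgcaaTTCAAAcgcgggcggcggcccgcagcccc
Top2a (chr11:99024190-99024439, minus strand): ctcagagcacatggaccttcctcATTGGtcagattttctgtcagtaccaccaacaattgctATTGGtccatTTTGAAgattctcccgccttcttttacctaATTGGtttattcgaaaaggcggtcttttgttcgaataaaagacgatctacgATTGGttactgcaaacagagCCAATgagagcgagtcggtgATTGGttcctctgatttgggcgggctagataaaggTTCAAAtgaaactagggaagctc
Tubb4b (chr2:25224703-25224952, minus strand): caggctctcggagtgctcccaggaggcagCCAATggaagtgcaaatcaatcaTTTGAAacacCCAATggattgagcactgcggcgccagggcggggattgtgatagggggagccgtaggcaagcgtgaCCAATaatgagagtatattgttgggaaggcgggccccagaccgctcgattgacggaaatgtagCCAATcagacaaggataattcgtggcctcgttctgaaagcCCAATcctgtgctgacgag
Mettl7a1 (a methyltransferase-like protein), P2ry12 (the purinergic receptor that marks resting microglia) and Rnpc3 (an RNA-binding protein of the minor spliceosome) were lower in the mitotic class.
Mettl7a1 (chr15:100304567-100304816, plus strand): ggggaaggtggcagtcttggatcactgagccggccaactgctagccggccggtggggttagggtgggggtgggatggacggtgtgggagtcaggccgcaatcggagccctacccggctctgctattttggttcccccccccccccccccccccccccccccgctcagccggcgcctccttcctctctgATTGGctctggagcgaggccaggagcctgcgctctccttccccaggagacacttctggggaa
P2ry12 (chr3:59262986-59263235, minus strand): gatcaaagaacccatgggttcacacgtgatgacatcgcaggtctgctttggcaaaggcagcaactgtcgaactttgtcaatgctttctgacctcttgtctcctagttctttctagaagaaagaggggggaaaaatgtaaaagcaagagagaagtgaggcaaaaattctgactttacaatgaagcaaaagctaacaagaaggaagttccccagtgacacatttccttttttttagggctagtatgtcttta
Rnpc3 (chr3:113630150-113630399, minus strand): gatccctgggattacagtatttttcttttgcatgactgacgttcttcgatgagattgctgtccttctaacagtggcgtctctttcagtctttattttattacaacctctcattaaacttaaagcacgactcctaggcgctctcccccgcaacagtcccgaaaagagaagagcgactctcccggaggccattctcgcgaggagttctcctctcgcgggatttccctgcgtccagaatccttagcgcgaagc
The Ube2c promoter held 6 matches to CCAAT and 1 to TTTGAA. In the Top2a promoter there were 6 and 2, and in the Tubb4b promoter 5 and 1. Mettl7a1 held 1 CCAAT, and the windows of P2ry12 and Rnpc3 held none of the motifs. Pbk, Ccna2 and Mir8114 had no entry.

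Both classes held cell cycle genes, and they differed mainly in the mitotic ones. Ccnb1 was at FPKM 1 or more in 92.3%, 72.2% and 90.9% of mitotic-class cells of mice 1, 2 and 3, and in 0%, 12.5% and 3.45% of S-phase-gene-class cells. Cdc20 was detected in 76.9%, 61.1% and 54.5% against 8.0%, 4.17% and 0%. Ccnb1 and Cenpe (83.7% ± 7.0, SD, n = 3 mice) were the most frequent of the 6 in the mitotic class, and Aurka (51.2% ± 13.2) was the least frequent. The cells were chosen by these 6 genes and the 6 S-phase genes, so the values of the 12 are a description without a test. Of the 42 mitotic-class cells, 22 held 5 or 6 of the 6 mitotic genes and 9 held exactly 2.

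The S-phase genes did not part the classes in the same way. Of the 42 mitotic-class cells, 38 (90.5%) also held at least 2 of the 6 S-phase genes, and the median number was 4.5 against 3.0 in the S-phase-gene class. Mcm5, a helicase subunit, was detected in 61.5%, 72.2% and 54.5% of mitotic-class cells and in 68.0%, 66.7% and 75.9% of S-phase-gene-class cells, with groups that overlapped. Mcm3 (58.6% ± 20.9 against 81.7% ± 5.94) and Mcm6 (54.9% ± 12.6 against 63.9% ± 10.4) were likewise detected in fewer mitotic-class cells on average. The genes of nucleotide supply went the other way. Rrm2, a ribonucleotide reductase subunit, was in 76.9%, 55.6% and 72.7% of the mitotic class and 12%, 16.7% and 17.2% of the S-phase-gene class. Tk1, thymidine kinase, was in 69.2%, 83.3% and 90.9% against 20.0%, 20.8% and 31.0%, and neither gene's groups overlapped. Tyms, thymidylate synthase, was in 78.2% ± 12.2 of the mitotic class, 64.4% ± 6.88 of the S-phase-gene class and also 36.2% ± 1.91 of cells in neither class.

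**Figure D1:**
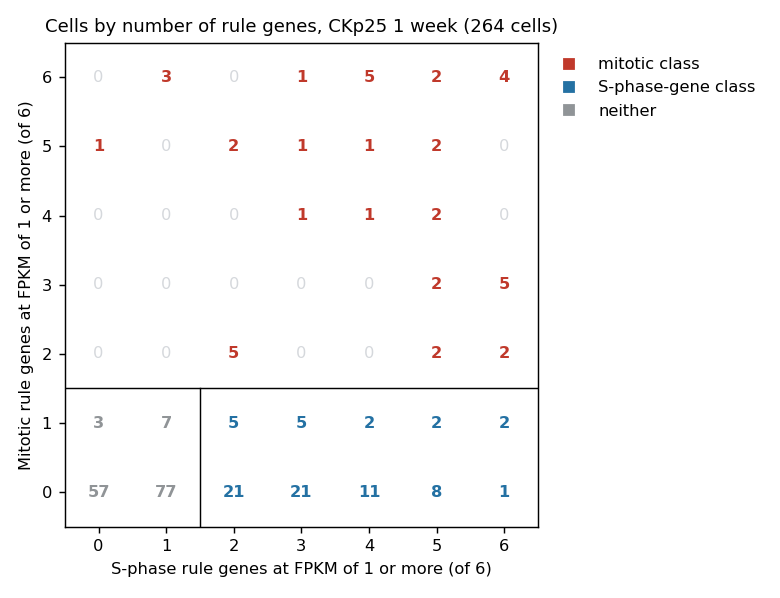
Number of the 264 CKp25 1 week cells by how many of the 6 S-phase rule genes (x axis) and the 6 mitotic rule genes (y axis) were at an FPKM of 1 or more, with lines at the class limits. Most mitotic-class cells lie to the right, with 2 or more S-phase genes, and 21 cells of the S-phase-gene class hold exactly 2 S-phase genes and no mitotic gene.

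Genes outside the rule were in part present on either side of the limits. Of the 9 cells with exactly 2 mitotic genes, 77.8% held Top2a and 66.7% Cdk1, against 30.8% and 23.1% of the 26 kept cells with exactly 1. Of the 26 S-phase-gene-class cells with exactly 2 S-phase genes, 65.4% held Pcna, the replication clamp, and 42.3% Mcm2. Among 84 cells in neither class with exactly 1 S-phase gene the shares were 31.0% and 11.9%, and in 52 of these 84 cells the gene was Tyms.

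The mitotic class was rare outside CKp25 mice at 1 and 2 weeks, but cells that met the S-phase rule were found in every group. The mitotic class made up 15.3%, 20.7% and 11.96% of kept cells in the 3 CKp25 1 week mice (16.0% ± 4.41, SD, n = 3), 5.94% ± 4.03 (16 cells, n = 3) at 2 weeks, and at most 1.18% in the mean of any other group, with 0 cells in CK at 2 and 6 weeks and in CKp25 at 6 weeks. The S-phase-gene class made up 29.5% ± 1.97 (n = 3) of CKp25 cells at 1 week and 27.6% ± 6.35 (n = 3) of CK cells at 1 week. The lowest group mean was 13.3% ± 7.47 (n = 3) in CK at 6 weeks. These shares rest on the rule and are given without a test.

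**Figure D2:**
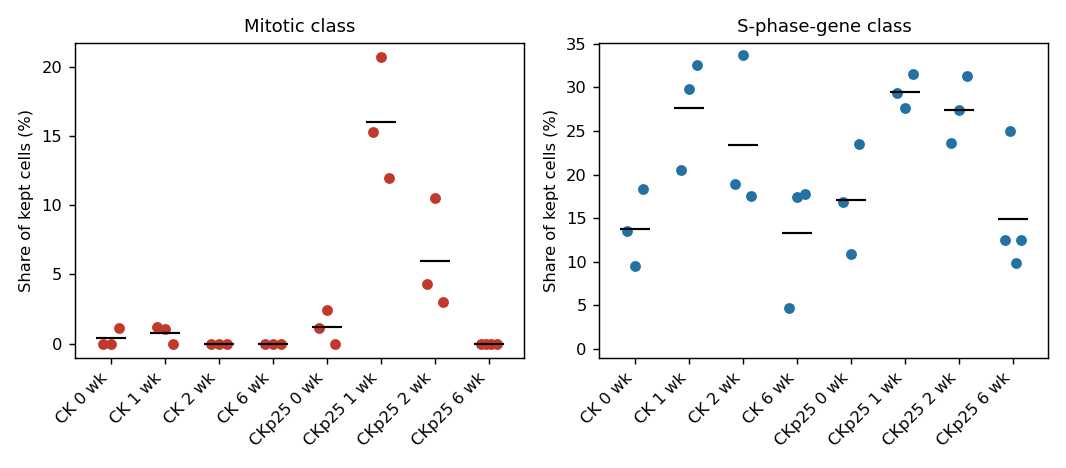
Share of kept cells in the mitotic class (left) and the S-phase-gene class (right) in each of 25 mice, by genotype and week (wk), with points for mice and a line at the group mean. The mitotic shares of the 3 CKp25 1 week mice (11.96% to 20.7%) lie above those of all other mice, while the S-phase-gene shares of CK and CKp25 mice at 1 week overlap.

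The S-phase-gene class was not alike in the groups. Over the pooled cells of the 3 CK mice at 1 week, 84.0% of its 75 cells held exactly 2 of the 6 genes, 84.0% held Tyms, 2.67% held Rrm2 and 2.67% held 4 or more of the 6. In the 78 CKp25 cells at 1 week 33.3% held exactly 2 and 33.3% held 4 or more. Pcna was in 78.2%, Mcm2 in 53.8%, Stmn1 in 42.3% and Top2a in 26.9% of the CKp25 cells, against 36.0%, 10.7%, 4.00% and 1.33% of the CK cells. Median genes per cell were similar, 2739.5 and 2671. The label of S phase was therefore kept only as the name of the rule's genes: the data show replication genes in these cells, but the rule also takes up cells with Tyms and a single Mcm gene in control mice, and 90.5% of the mitotic class would meet it too.

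Cells of both classes carried the microglial genes. Tmem119, Cx3cr1, Csf1r and C1qa were each detected in 100% of the cells of either class on average, and P2ry12 in 97.0% of mitotic-class and 100% of S-phase-gene-class cells. The mean FPKM of Csf1r, the receptor on which microglia depend, was 1108 in the mitotic class and 1367 in the S-phase-gene class, and that of Tmem119 was 1167 and 1242. Among 12 lists of other cell types, no mitotic-class cell held 2 or more markers of border-associated macrophages, monocytes, neutrophils, T or NK cells, B cells, dendritic cells, neurons, astrocytes or erythroid cells. A pair or more of endothelial markers was found in 3 of 42 mitotic-class cells and in 0 of 78 S-phase-gene-class and 0 of 144 neither-class cells. For oligodendrocyte-lineage markers the numbers were 3, 2 and 5, and for neural progenitor markers 1, 0 and 1. In all, 7 of 42, 5 of 78 and 11 of 144 cells held 2 or more markers of another type. Cldn5, Flt1 and Tek, and Mog, Olig1, Olig2, Pdgfra and Cspg4, were at 0 in the whole mitotic class. Nes, an intermediate filament gene on the progenitor list, was in 56.5% of mitotic-class and 12.5% of S-phase-gene-class cells on average and higher by 1.71 ± 0.44 (SE, adjusted p = 0.0125). Of the same list Dcx was in 2.56% and Eomes in 3.03% of mitotic-class cells and both in 0% of the S-phase-gene class, while Sox2 and Neurod1 were at 0 in both classes. With every cell that held 2 or more markers of another type left out, 316 genes were higher and 4 lower.

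The mitotic class had more genes per cell. Median genes at FPKM 1 or more were 3716, 3658 and 3437 in the mitotic class of mice 1, 2 and 3, and 3134, 3077.5 and 2450 in the S-phase-gene class. The difference was 716.5 ± 234 (SD, n = 3), with an exact two-sided sign-flip p of 0.25, the smallest that 3 pairs allow. The fragments per cell implied by the steps of low FPKM values were 44720, 57198 and 72515 against 45978, 49161 and 33738, higher in 2 of 3 mice. No 2 of the wells held identical values (0 of 2208).

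For the comparison of the classes, the mean of log2(FPKM + 1) over cells was taken per class and mouse, and 8867 genes outside the rule were tested with limma and a term for the mouse. Each SE given with a difference is limma's, which borrows spread from other genes, and is not the spread of the 3 mice. In the mitotic class 363 genes (4.09%) were higher and 4 (0.0451%) lower at a Benjamini-Hochberg adjusted p under 0.05, 4.14% in either direction, and 359 of the 363 had the same sign in all 3 mice. The median difference over all genes was 0.23 in favour of the mitotic class. It fell to -0.04 when the means per class and mouse, not the single cells, were quantile normalized. That left 176 genes higher, all of them among the 363, and 21 lower. Restricting both classes to the middle 80% of genes per cell left 226 higher, 219 of them among the 363, and 4 lower. Taking log2 of the mean FPKM in place of the mean of log2 left 80 higher, 79 of them among the 363, and 6 lower. The mitotic genes outside the rule are bound to it, since cells in mitosis express them together, so their calls describe the classes and are not independent of how the cells were chosen.

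**Figure D3:**
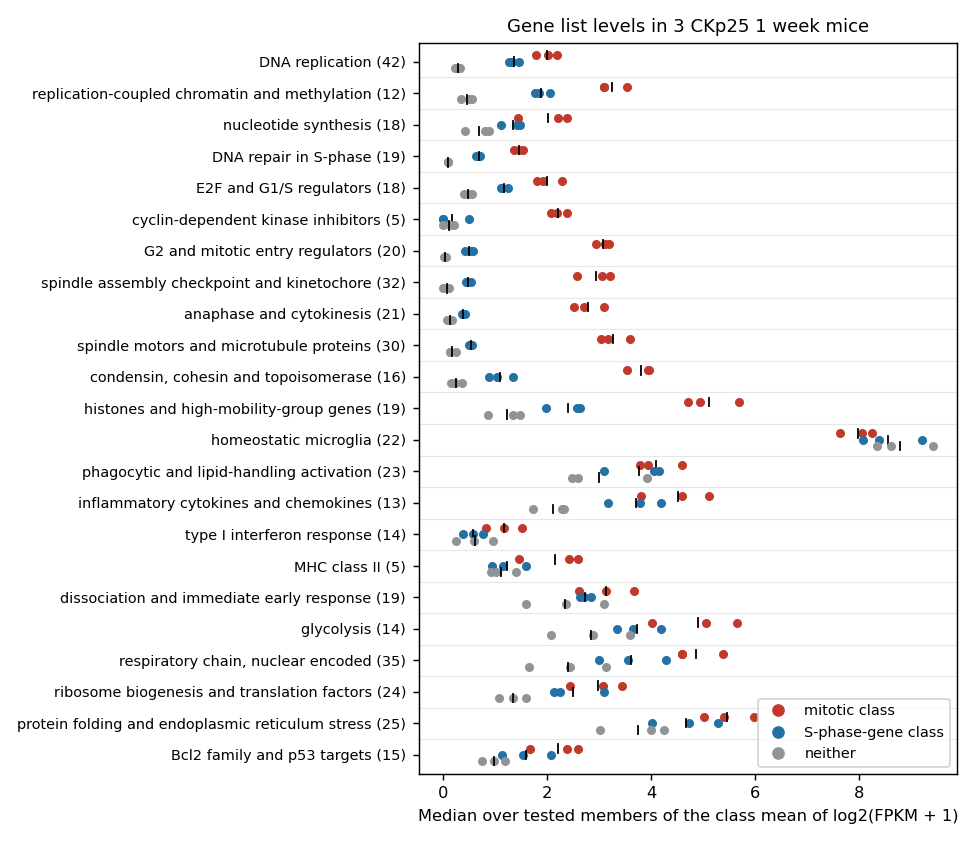
Median level of the tested members of each of 23 gene lists (number tested in brackets) in the 3 classes of cells, as the class mean of log2(FPKM + 1), with a point for each of the 3 CKp25 1 week mice and a line at the mean. The 5 mitosis lists part the mitotic class from both other classes, while in the first 4 lists, those of replication, both classes lie above the cells in neither class in all 3 mice. Neither pattern is independent of the rule that chose the cells.

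The genes of mitosis were higher in the mitotic class almost throughout. Over 5 lists (mitotic entry, kinetochore and checkpoint, anaphase and cytokinesis, spindle, and chromosome condensation) 99 of 118 tested members were called higher and none lower, with a median difference of 2.49 and 117 of 118 positive, against 4.09% and 0.23 over all genes. Under quantile normalization and log2 of the mean FPKM every one of the 5 list medians stayed above 2. Fewer members were called on log2 of the mean FPKM: 13 of the 20 mitotic entry genes, 11 of the 32 kinetochore, 10 of the 21 anaphase, 15 of the 30 spindle and 5 of the 16 condensation genes. The 29 named members of these lists were picked from the 99 for a small p or a large difference. All 29 kept their call with any 1 mouse left out, and 28 kept it in every setting that tested them. That way of picking favours stable calls, so the 29 do not stand for the 99. Of all 363 genes called higher, 228 were still called without mouse 1, 213 without mouse 2 and 211 without mouse 3.

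Among regulators of mitotic entry, Pbk, a kinase active in mitosis, had the smallest adjusted p of all genes tested. It was at a log2 mean of 6.43, 5.88 and 7.74 in the mitotic class of mice 1, 2 and 3 and at 0.61, 0.32 and 0.41 in the S-phase-gene class, a difference of 6.23 ± 0.55 (SE, adjusted p = 9.67e-12). Ccna2, cyclin A2, which acts in S phase and G2, was at 5.26, 6.01 and 6.60 against 0.60, 0.53 and 0.54, a difference of 5.40 ± 0.54 (adjusted p = 1.80e-10). For neither gene did the classes overlap, and Ccna2 in the S-phase-gene class was close to its mean of 0.50 in cells of neither class. Cdk1, the kinase that cyclin B activates, was at 5.89, 5.26 and 6.20 against 0.81, 1.62 and 1.64 and was detected in 27.0% ± 10.8 of S-phase-gene-class cells (n = 3), against 5.05% ± 5.25 of cells in neither class. In this list 18 of 20 members were called higher, among them Cks1b (4.37 ± 0.55), a Cdk-binding subunit, the cyclin Ccnf (4.34 ± 0.52) and the kinase Aurkb (4.02 ± 0.51).

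Kinetochore, checkpoint and anaphase genes followed. In the kinetochore and checkpoint list 26 of 32 members were called higher (median 2.45). Birc5 and Incenp, partners of Aurkb in the chromosomal passenger complex, were higher by 4.89 ± 0.54 and 4.27 ± 0.53, the third partner Cdca8 by 4.07 ± 0.53, and Cenpa, the centromeric histone, by 4.31 ± 0.51. Ndc80, which ties kinetochores to microtubules, was higher by 3.46 ± 0.50. In the anaphase and cytokinesis list 17 of 21 were called (median 2.59). Ube2c was at 5.76, 6.29 and 5.99 in the mitotic class and 0.68, 0.55 and 0 in the S-phase-gene class, a difference of 5.60 ± 0.54 (adjusted p = 7.54e-11). Cdca3 was detected in 74.6% ± 10.05 of mitotic-class cells (n = 3) and in 1.33% ± 2.31 of the others, while Prc1 and Racgap1, proteins of the central spindle, were higher by 4.12 ± 0.52 and 3.79 ± 0.55.

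Spindle and chromosome genes were not all silent in the S-phase-gene class. Of the spindle list 26 of 30 were called higher (median 2.29), and of the condensation list 13 of 16 (median 2.64). Top2a, which untangles sister DNA, was at 5.98, 7.08 and 7.29 against 1.45, 0.71 and 1.38, a difference of 5.60 ± 0.56 (adjusted p = 1.80e-10), and was detected in 26.6% ± 5.24 of S-phase-gene-class cells but 2.63% ± 2.92 of cells in neither class. Stmn1, a microtubule-destabilizing protein, was at 7.54, 8.05 and 8.52 against 3.14, 3.54 and 2.75 and at a mean of 1.21 in neither class. Both were highest in the mitotic class and lowest in neither class, with no overlap between the 2 classes compared. Tubb4b, in contrast, was at 2.66, 2.34 and 1.19 in the S-phase-gene class and 1.98, 2.01 and 1.03 in neither class, against 7.44, 7.01 and 7.87 in the mitotic class. Mki67, the common marker of dividing cells, was detected in 93.0% ± 7.79 of the mitotic class and only 12.5% ± 4.48 of the S-phase-gene class (7.21% ± 5.75 in neither), and the condensin genes Smc4, Ncapd2 and Smc2 were higher by 3.82 ± 0.54, 3.64 ± 0.53 and 3.44 ± 0.53.

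**Figure D4:**
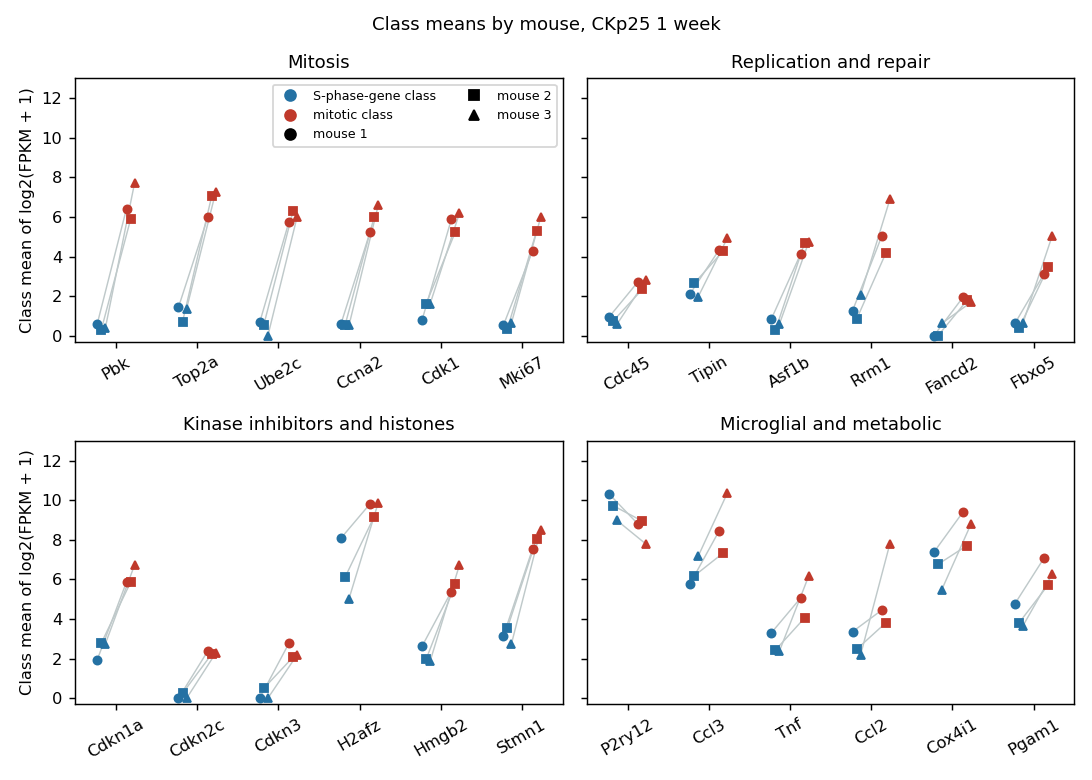
Class means of log2(FPKM + 1) for 24 named genes in the S-phase-gene class (blue) and the mitotic class (red), joined within each of the 3 CKp25 1 week mice (symbols). The 6 mitosis genes lie at 0 to 1.64 in the S-phase-gene class and at 4.29 to 7.74 in the mitotic class, and P2ry12 is the gene of the 24 that is lower in the mitotic class in each mouse.

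Histone and chromatin protein genes were higher as well. In the list of histone and high-mobility-group genes 14 of 19 tested members were called higher (median 1.78). It was 7 under quantile normalization (median 1.27) and 5 on log2 of the mean FPKM (median 1.31). In the main fit 4.09% of all genes tested were called higher and the median was 0.23. H2afz, a histone variant, was at 9.82, 9.17 and 9.88 against 8.08, 6.10 and 5.03, a difference of 3.22 ± 0.41 (adjusted p = 1.20e-07). Hmgb2, a DNA-bending protein, was higher by 3.81 ± 0.56 and Hmgn2 by 2.72 ± 0.42. These genes were already detected in part of the S-phase-gene class, H2afz in 79.3% and Hmgn2 in 79.9% of cells on average, against 57.3% and 49.3% in neither class. Several of them have near-identical copies in the genome, so the share of reads that belongs to each is uncertain.

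Fewer replication genes than mitosis genes passed the test between the classes. Over 4 lists (replication, replication-coupled chromatin, nucleotide synthesis and repair) 15 of 91 tested members were called higher and none lower. Their median difference was 0.47, and 73 of 91 were positive. Over all genes tested 4.09% were called higher, the median was 0.23 and 68.5% were positive. The median level of the 42 replication genes was 2.18, 2.02 and 1.79 in the mitotic class and 1.47, 1.33 and 1.26 in the S-phase-gene class. In cells of neither class it was 0.32, 0.22 and 0.28. Those cells were chosen for holding fewer than 2 S-phase rule genes, so their low level is not independent of the rule. The median difference of the 42 genes between the 2 classes was 0.44, or 0.11 under quantile normalization, where none of the 42 was called. Pcna was detected in 85.6% of mitotic-class and 78.5% of S-phase-gene-class cells on average, and its difference was 0.39 ± 0.49 (adjusted p = 0.777). None of 3 Mcm subunits outside the rule was called: Mcm2 differed by -0.24 ± 0.54, Mcm4 by -0.82 ± 0.51 and Mcm7 by 0.05 ± 0.55.

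The 15 replication-list genes that were called did not include an Mcm subunit. Mcm3, Mcm5 and Mcm6 were rule genes and were not tested. They included Tipin (2.28 ± 0.54), a protein that steadies stalled forks, Cdc45 (1.88 ± 0.47), a helicase cofactor, and Chtf18 (1.48 ± 0.41), part of a clamp loader. Asf1b, a histone chaperone, was at 4.13, 4.70 and 4.73 in the mitotic class and 0.85, 0.27 and 0.60 in the S-phase-gene class, a difference of 3.94 ± 0.51 (adjusted p = 1.39e-07). Rrm1, the partner of Rrm2, was at 5.03, 4.18 and 6.89 against 1.27, 0.84 and 2.08 (3.97 ± 0.55, adjusted p = 5.81e-07). Neither gene's classes overlapped. Ezh2, the Polycomb methyltransferase, was higher by 3.02 ± 0.54, the folate enzyme Mthfd2 by 2.69 ± 0.51, and the repair gene Fancd2 by 1.60 ± 0.37. On log2 of the mean FPKM 12 of the 15 lost their call, among them Ezh2, with a difference of 1.44 (adjusted p = 0.330). With 1 mouse left out 10 of the 15 lost their call, among them Tipin, Cdc45, Chtf18, Chaf1a, Atad2, Uhrf1, Dck, Impdh2 and Fancd2, at adjusted p-values of 0.0526 to 0.359. Among the 18 tested regulators of E2F and the G1/S step 4 were called higher, against 4.09% of all genes tested. The median of the 18 was 0.44, against 0.23 over all genes. Fbxo5 (3.33 ± 0.50), an inhibitor of the anaphase-promoting complex, had the largest difference. The repressors E2f8 (1.59 ± 0.44) and E2f7 (1.07 ± 0.31) and the activator E2f2 (1.36 ± 0.41) were the others. E2f8 and E2f2 lost the call without any 1 of the 3 mice (adjusted p 0.0737 to 0.228), and E2f7 without mouse 1 or 2 (0.280 and 0.138).

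Inhibitors of cyclin-dependent kinases, which hold the cycle back, were among the genes higher in the mitotic class. Of 8 listed inhibitors 5 were tested, and 4 of these were called higher, against 4.09% of all genes tested. The median difference of the 5 was 2.18 (1.93 under quantile normalization), against 0.23 over all genes. Cdkn1a, the p53 target p21, was at 5.88, 5.85 and 6.74 in the mitotic class and 1.95, 2.79 and 2.76 in the S-phase-gene class, a difference of 3.66 ± 0.54 (adjusted p = 2.64e-06). Detection of Cdkn1a went from 26.5% of cells in neither class to 43.2% and 82.5% in the S-phase-gene and mitotic classes on average. Cdkn2c, an inhibitor of Cdk4 and Cdk6, was at 2.38, 2.24 and 2.29 against 0, 0.25 and 0 (2.22 ± 0.41, adjusted p = 0.000139). Cdkn3, a phosphatase of Cdk1 and Cdk2, was at 2.78, 2.08 and 2.19 against 0, 0.50 and 0. The groups of these 3 genes did not overlap. Cdkn2d was found in 19.8% of mitotic-class cells and in 0% of the S-phase-gene class (0.79 ± 0.22, adjusted p = 0.0247) and lost its call without any 1 mouse (0.0682 to 0.118). The other tested inhibitor, Cdkn1b, differed by 0.49 ± 0.39, and on log2 of the mean FPKM the Cdkn1a difference was 1.99 with an adjusted p of 0.0696. In the list of Bcl2 family genes and p53 targets, which does not hold Cdkn1a, none of 15 tested genes was called, with Ccng1 (1.43 ± 0.51, adjusted p = 0.109) and Bax (1.07 ± 0.60, adjusted p = 0.396) at the smallest p.

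Of the genes of resting microglia 1 passed the test. Of the 22 homeostatic genes 1 was called lower, P2ry12, against 0.0451% of all genes tested. Of the 22 differences 19 were negative, with a median of -0.47 against 0.23 over all genes. P2ry12 was at 8.79, 8.95 and 7.78 in the mitotic class and 10.3, 9.73 and 8.98 in the S-phase-gene class, and fell by 1.18 ± 0.32 on the log2 scale (adjusted p = 0.0210). It was lower in each mouse, although the highest mitotic-class value, 8.95, was just under the lowest S-phase-gene-class value, 8.98. The call was lost without mouse 1 (0.253) or mouse 2 (0.0549) and on the middle 80% of genes per cell (0.142). It was also lost in 6 other settings at 0.0533 to 0.386, among them the fit without the term for the mouse (0.279). Cx3cr1, the fractalkine receptor, differed by -0.74 ± 0.32 (adjusted p = 0.234), Csf1r by -0.33 ± 0.28 and Tmem119 by -0.14 ± 0.29. Under quantile normalization 3 of the 22 were called lower and the median was -0.83.

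The other 3 genes called lower are not part of a list. Mir8114, a microRNA gene so short that a single fragment gives a high FPKM, was detected in 1.85% of mitotic-class and 19.7% of S-phase-gene-class cells on average (-1.84 ± 0.44, adjusted p = 0.00542). Mettl7a1 was in 2.56% against 23.4% (-1.06 ± 0.29, adjusted p = 0.0201) and Rnpc3 in 4.42% against 19.4% (-0.94 ± 0.28, adjusted p = 0.0383). In cells of neither class they were in 11.2%, 18.2% and 11.8%, between the 2 classes. The call of Mir8114 was lost without mouse 3 (0.241), and those of Mettl7a1 and Rnpc3 without any 1 mouse (0.0620 to 0.166).

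Some inflammatory genes were detected in more cells of the mitotic class. Of 13 tested cytokines and chemokines 5 were called higher and none lower, with a median of 0.46. Under quantile normalization the median was 0.21, with 3 higher and 1 lower. In the main fit 4.09% of all genes tested were called higher and the median was 0.23. Ccl3, a chemokine of activated microglia, was at 8.47, 7.34 and 10.4 in the mitotic class and 5.79, 6.18 and 7.18 in the S-phase-gene class, a difference of 2.35 ± 0.41 (adjusted p = 6.57e-05), and was detected in 89.3% against 67.7% of cells. Cxcl10, an interferon-induced chemokine, was at 3.53, 1.28 and 3.84 against 0, 0.82 and 0.58 (2.42 ± 0.51, adjusted p = 0.00113). For both genes the classes did not overlap. Ccl12 (2.17 ± 0.46), Tnf (2.39 ± 0.56) and Ccl2 (2.68 ± 0.63) were the others. Mouse 3 carried much of the last pair: without it Tnf was at an adjusted p of 0.152 and Ccl2 at 0.399, with a difference of 1.22, while Cxcl10 was at 0.0594 without mouse 1. The mean FPKM of Ccl3 was 1408 in the mitotic class and 1128 in the S-phase-gene class, and on log2 of the mean FPKM its difference was 0.19 (adjusted p = 0.821), that of Tnf 0.69 (0.711) and that of Ccl2 0.77 (0.473). The mitotic class also had more genes per cell, and the bearing of this on the 5 calls was not tested. On the middle 80% of genes per cell all 5 were called, but that trim does not make the classes equal in genes per cell. Under quantile normalization the limma adjusted p was 0.0744 for Tnf and 0.0535 for Ccl2. Without the term for the mouse it was 0.0939 for Ccl12 and 0.0634 for Ccl2. Ccl3 was at 0.0596 with the neither class added.

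In lists of other states of activation few or no genes were called. With 4.09% called higher over all genes, such counts in short lists do not show that the classes were alike. None of 14 interferon-response genes and none of 5 MHC class II genes was called, with Ifi27l2a (1.27 ± 0.44, adjusted p = 0.0904) and H2-Oa (1.15 ± 0.43, adjusted p = 0.142) at the smallest p of each list. The medians of these 2 lists were 0.53 (13 of 14 positive) and 0.84 (4 of 5 positive), against 0.23 over all genes. Under quantile normalization they were 0.28 and 0.36. Of 23 genes of phagocytic and lipid-handling activation only Ch25h, cholesterol 25-hydroxylase, was called higher (1.45 ± 0.42, adjusted p = 0.0339), a call lost without any 1 mouse (0.0681 to 0.218), and Apoe differed by -0.79 ± 0.57. None of 19 immediate early and dissociation genes was called, Ier3 being nearest (1.86 ± 0.58, adjusted p = 0.0532). The medians of the last 2 lists, 0.18 and 0.22, turned negative (-0.12 and -0.15) under quantile normalization.

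Some genes of energy metabolism were higher. Among 35 nuclear-encoded genes of the respiratory chain 6 were called higher and none lower, with a median of 1.14 (0.53 under quantile normalization, where 2 were called) and 31 positive. Cox4i1, a cytochrome oxidase subunit, was at 9.40, 7.71 and 8.81 against 7.36, 6.76 and 5.49 (2.10 ± 0.41, adjusted p = 0.000399). Its classes did not overlap, and it was detected in 98.1% of mitotic-class, 79.0% of S-phase-gene-class and 70.3% of neither-class cells. The others were Cox8a, Ndufv1, Atp5j, Ndufb9 and Atp5h, each higher by 1.67 to 2.08. Among 14 glycolysis genes Pgam1 (2.28 ± 0.51, adjusted p = 0.00228) and Ldha (1.96 ± 0.45, adjusted p = 0.00362) were called. Of these 8 genes, Cox4i1 and Pgam1 kept the call with any 1 mouse left out, while Ldha was at an adjusted p of 0.157 without mouse 2, Cox8a at 0.155 without mouse 1, and the remaining 4 at 0.0773 to 0.641 where they lost it. On log2 of the mean FPKM all 8 missed the threshold, Cox4i1 with a difference of 0.56 and Pgam1 with 0.47. In the lists of ribosome biogenesis and of protein folding 1 gene each was called, a share near the 4.09% over all genes. These were the cap-binding factor Eif4e (1.80 ± 0.55, adjusted p = 0.0475) of 24 and the chaperone Hsp90aa1 (1.67 ± 0.48, adjusted p = 0.0287) of 25. Both calls were lost without any 1 mouse (0.0518 to 0.315), and both list medians, 0.33 and 0.44, were -0.06 and -0.08 under quantile normalization.

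Of the 363 genes higher in the mitotic class, 136 were in a cell cycle list and 211 in no list. The promoter motifs were counted as a description. RefSeq promoters were matched for 275 of the 363 genes and for 76 of the 99 called mitosis genes. Of the 275, CCAAT was in 50.5%, TTTGAA in 18.9%, both in 14.2% and an E2F-type motif in 18.2%. CCAAT was in 67.1% of the 76 mitosis genes, against 36.9% of 6817 matched tested genes and 34.5% of all 27025 promoters in the table. TTTGAA was in 31.6% against 10.6% and 16.3%, and both motifs were in 26.3% against 4.21% and 5.73%. The 73 matched genes of the replication lists held CCAAT in 56.2%, TTTGAA in 13.7% and an E2F-type motif in 24.7%, while 11.8% of the 76 mitosis genes and 11.1% of the tested genes held an E2F-type motif. A match of these letters is not a site of binding.

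The same contrast was then made in other animals. At 2 weeks mice 1 and 2 had at least 3 cells in each class (4 and 10 in the mitotic class, 22 and 26 in the S-phase-gene class), and mouse 3, with 2 mitotic-class cells, did not enter. Of 8805 genes tested 20 (0.227%) were higher in the mitotic class and 0 lower, with 782 genes at an unadjusted p under 0.05 by limma. All 20 had been called at 1 week, 17 of them in a mitosis list: Tubb4b (5.71 ± 0.88), Stmn1 (5.44 ± 0.80), Ube2c (5.37 ± 0.85), Birc5 (5.20 ± 0.85) and Ndc80 (5.05 ± 0.82) had the largest differences. Of 344 genes called higher at 1 week and tested at 2 weeks 284 (82.6%) were positive, with a median difference of 1.40 against 2.04 at 1 week, whereas 49.8% of all 8161 genes tested in both weeks were positive.

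Called at 1 week, 7 genes outside the mitosis and replication lists, picked with their values seen, were not called at 2 weeks. Ccl3 differed by -0.31, Tnf by -0.43, Ccl2 by -0.71, Pgam1 by -0.24, Cox4i1 by 0.30 and P2ry12 by 0.23, at adjusted p-values of 0.887 to 0.957, while Cdkn1a differed by 1.87 (adjusted p = 0.526). The median of the respiratory chain list was 0.50 against 1.14 at 1 week, that of the interferon list 0.51 against 0.53, and that of the cytokine list -0.29 against 0.46. The median over all genes was near 0 (-0.002), compared with 0.23 at 1 week, and median genes per cell at 2 weeks were 2825.5 and 3340.5 in the mitotic class against 2923.5 and 3073.5. The difference between weeks was itself tested over 8867 genes: none was higher and none lower by limma, and 701 had an unadjusted p under 0.05. P2ry12 was higher by 1.41 in the contrast at 2 weeks than at 1 week (adjusted p = 0.554). In that test without mouse 2 of the 2 weeks group, which leaves 1 pair assumed to vary like the others, 37 genes were higher and 47 lower. With 2 pairs the 2-week count is weak: it was 0 without the term for the mouse, and 0 when a gene had to be in 25% of cells.

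**Figure D5:**
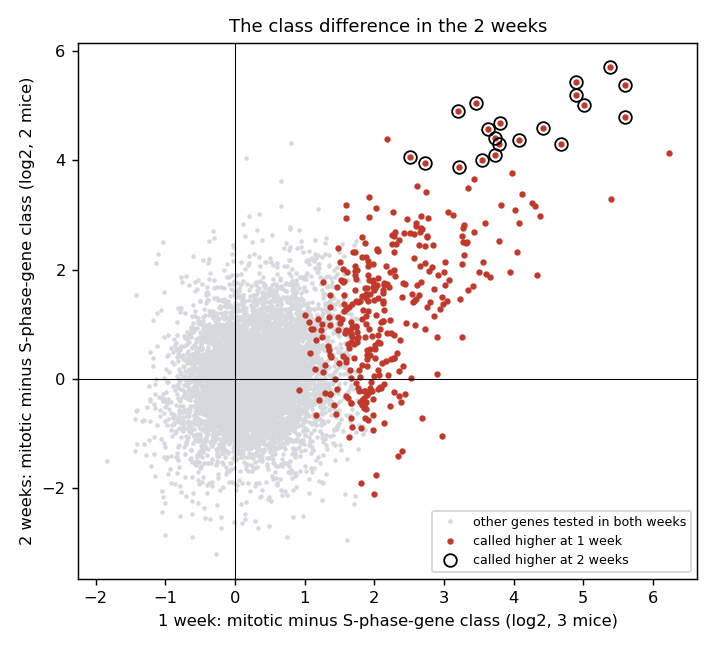
Difference between the classes (mitotic minus S-phase-gene, on the log2 scale) at 1 week (x axis, 3 mice) and at 2 weeks (y axis, 2 other mice) for genes tested in both weeks, with the genes called higher at 1 week in red and the 20 called at 2 weeks ringed. The 20 genes lie at differences of more than 2 in both weeks, and red points with 1-week differences near 2 spread on both sides of 0 at 2 weeks. The same rule chose the cells in both weeks, so neither axis is independent of it.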

How the data were processed

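The data were 1 table of FPKM for 23951 genes in 2208 samples, each a sorted well of 1 of 25 mice. The authors made the FPKM values with Cufflinks 2.2 on mm9, per the submitters' processing notes. The aligner is given only by the word TOPHAT in the name of the deposited data, without a version. For the annotation and strand setting the sources used here name nothing. FPKM keep no counts, and the submitters state a median of 251353 mapped reads over 2183 libraries. Fragments per cell were implied from the steps of low FPKM values times transcript length in 7287 genes with 1 transcript, added after the data were seen (79.8% of low values lay within 0.15 on the log2 scale of a whole number). Of nonzero values 97.3% were at FPKM 1 or more. Cells were not clustered and doublets were not called.

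Each profile was the mean of log2(FPKM + 1) over the cells of 1 class in 1 mouse, so differences understate the change of genes at low values. A gene was tested when at FPKM 1 or more in at least 10% of cells in 3 of the 6 profiles. For 2 weeks, and with a mouse left out, 2 of the 4 profiles were asked for, a choice made after the data were seen, since 3 would bar genes found in 1 class. limma 3.58.1 (R 4.3.3) with trend, robust and a term for the mouse gave two-sided tests with Benjamini-Hochberg adjustment over all tested genes but the 12 rule genes, at 0.05. Python 3.11.15, numpy 2.4.6, pandas 2.3.3 and scipy 1.17.1 did the rest. On simulated data for the 1-week comparison (200 of 8879 genes shifted), 0% were recovered at a shift of 1, 48% at 2 and 99% at 3 on the log2 scale, with at most 3 false calls. Both simulated classes were random draws from cells in neither class, and each shift was the same in every mouse. They held no built-in class difference in genes per cell, so the false calls do not bear on that difference.

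Same-numbered profiles pair by design, since both classes come from 1 animal. With 2 residual degrees of freedom the test borrows its spread from other genes, and so do the SE and the p-values. The labels name the mice as separate animals. The classes, the 23 pathway and 13 cell type lists and the tests were chosen with earlier results of these data known. Named genes were the 12 rule genes, the 15 largest differences in each direction with the same sign in 3 mice, up to 6 called members of each list by smallest p (or 2 where none was called) and the cell type markers. Pcna, Mcm2, Mcm4, Mcm7, Cdkn1b and Apoe were added after their values were seen. Tubb2c, Pkm2, Ly6g, Trac, Ighm and Hbb-b2 were not found by symbol. Promoter coordinates are RefSeq's on GRCm38.p6, not the build of the FPKM table. Some members of the lists are not reported here by name.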

Additional observations from a re-analysis of the deposited data

Results flagged for a closer look

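The wells numbered first for the 3 CKp25 mice at 1 week were left out of the classes but held the genes that define them. The lowest summed FPKM of the 6 mitotic genes among these 3 wells was 94.9628, above the highest of the 3 first wells of CK mice at 1 week (37.4). Each of the 3 held all 6 mitotic and all 6 S-phase genes and 10149 to 10740 genes in all, against a median of 2739.5 to 3628.5 in the classes. Ccnb1 was at an FPKM of 32.0, 23.4 and 15.9 in them. The first wells of CK mice 2 and 3 held 10296 and 10463 genes, with 5 and 0 of the mitotic genes. With the first wells kept, 515 genes were higher and 1 lower in the mitotic class, and all 363 of the genes given above were called again. The labels do not say how many cells such a well held.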

How the results depend on the processing

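Without a replicate block for the mouse 189 genes were higher (all among the 363) and 1 lower at 1 week, and 0 higher at 2 weeks. The 1-week count of higher genes also moved to 176 with quantile normalization, 80 on log2 of the mean FPKM, 208 with 3 or more of 6 genes asked for and 226 on the middle 80% of genes per cell, and was 244 to 271 with 1 mouse left out. The count of lower genes, 4, moved to 21 (quantile), 8 (profiles weighted by cells, cells with 2000 or more genes, or middle 80% of implied fragments), 7 (pseudocount 0.1), 2 (no filter, genes in 25% of cells, or 3 or more of 6 genes) and 1 (rule at FPKM 10, or first well kept), and to 1 to 10 with 1 mouse left out. At 2 weeks the count of 20 moved to 52 (pseudocount 0.1), 35 (no filter, or cells scaled to the same sum), 0 (genes in 25% of cells), 41 (quantile), 96 (neither class added), 12 (3 or more of 6 genes), 45 (2000 or more genes), 37 (first well kept), 13 (cells with other markers left out) and 46 (implied fragments). The 2-week count of lower genes, 0, moved to 9 (quantile), 4 (other markers left out), 3 (pseudocount 0.1, log2 of the mean FPKM, rule at FPKM 10, or implied fragments), 2 (3 or more of 6 genes, or 2000 or more genes) and 1 (neither class added, middle 80% of genes, or genes in 3 of the 4 profiles, where 27 were higher). The difference between weeks went from 0 to 2 lower genes with other markers left out, and to 37 higher and 47 lower without mouse 2 of the 2 weeks group. The S-phase-gene share of 29.5% was 27.2% with the rule at FPKM 10, 19.6% with 3 or more genes and 37.0% in cells with 2000 or more genes. The cause of these shifts was not tested.

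Of 78 named genes with a call 39 kept it in every setting that tested them and 0 turned sign. These 78 were named in part for a small p or a large difference, which favours stable calls. Of the 8 without a call only Bax turned sign, with differences of -0.00646 to 2.06 when 1 mouse was left out. The middle 80% of fragments and the profile minimum at 2 weeks were added after the data were seen. Leaving out mitotic-class cells with S-phase genes was not run, since 4 cells remained, nor was the 2-week fit with 1 of its 2 pairs left out. Depth per cell is known only as implied fragments, and a log2 shift of 1 was not recovered on simulated data.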
